A study of Homo sapiens with 12 samples.

Results

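Collagen genes were taken as every row of the deposited gene count table whose symbol is COL, a number, A and a number, which gave 44 of the 28278 genes listed. Of these, 36 passed the filter on low counts that kept 15916 genes for testing. The 8 libraries came from WA26, an established line of human embryonic stem cells (hESCs) grown without feeder cells on Matrigel, and 2 libraries stood for each of 4 groups. These were wild type (WT) cells at normal O2, UBQLN1-/- cells at normal O2, UBQLN1-/- cells at low O2 (5%) and UBQLN1-/- cells given NAC (N-acetylcysteine, an antioxidant and precursor of glutathione). UBQLN1 encodes a shuttle that carries ubiquitinated proteins to the proteasome, and the knockout was made with CRISPR/Cas9 and grown from picked clones, so that a difference between clones cannot be told apart from the genotype. The labels do not say which clone, culture or vehicle stands behind each library, so that the p-values below measure the spread between libraries, which may be technical. The study's scheme names DMSO as the control for NAC, but the labels do not say whether the libraries called untreated here had it. The scheme shows NAC and low O2 kept for several passages, while the study's text also speaks of RNA-seq after a day of low O2, and the labels give no duration. WT cells at low O2 and with NAC were not analysed here.

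Collagens are secreted or membrane proteins whose chains wind around each other in a triple helix, and a glycine recurs in each triplet of residues of the helical part. Fibrillar collagens build the ropes of connective tissue, type IV collagens the sheet of the basement membrane, and type VI the beaded filaments around cells, while FACIT collagens attach to fibrils and the transmembrane collagens stay in the plasma membrane. Prolyl and lysyl hydroxylases modify the chains in the endoplasmic reticulum, with molecular oxygen, iron and ascorbate, before the helix forms. Undifferentiated hESCs lie on a basement membrane and are epithelial, whereas type I and type III collagen are abundant products of fibroblasts.

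The repeat that defines the family can be read in the coding sequences. The first 5 triplets of the longest run are shown for 5 members that the results turn on or that differ in structure, with the glycine codons in capitals. They were read from the canonical transcripts of GENCODE v44 on hg38, 5′ to 3′ on the coding strand. COL1A1 (chr17:50198170-50198441, exons 6 and 7), COL3A1 (chr2:188987113-188988098, exons 5 and 6), COL6A3 (chr2:237357383-237357852, exons 22 and 23) and COL26A1 (chr7:101540040-101544032, exons 5 and 6) run over an intron, and COL4A5 (chrX:108668459-108668503) lies in exon 41.
COL1A1: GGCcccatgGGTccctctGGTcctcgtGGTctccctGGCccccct
COL3A1: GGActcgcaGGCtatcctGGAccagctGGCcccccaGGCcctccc
COL4A5: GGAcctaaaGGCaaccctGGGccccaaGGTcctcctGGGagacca
COL6A3: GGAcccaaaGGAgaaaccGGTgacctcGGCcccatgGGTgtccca
COL26A1: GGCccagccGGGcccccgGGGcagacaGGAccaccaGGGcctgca
In COL1A1 the longest unbroken run held 338 triplets and in COL3A1 343, and codons in runs of at least 5 triplets made up 72.7% and 72.9% of their coding sequences. In COL4A5 the repeat was broken into 23 runs with a longest of 42 triplets, as in the other type IV chains. In COL6A3, most of which is not helical, runs made up 10.48% of the codons, and in COL26A1 27.9%. Glycine codons begin with GG and proline codons with CC, and the median GC content of the collagen transcripts tested was 57.5%, against 49.0% for all genes tested. Their median length was 5763 bases, against 3239. Both properties are used below, because the fold changes of all genes moved with them.

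The library totals lay between 31236968 and 41639350 counts, so that 3 counts, taken as the limit that a count of 0 allows, stood for 0.0729 to 0.100 CPM (counts scaled to the library total with the TMM method). UBQLN1 stood at 221 and 197 CPM in WT and between 42.3 and 62.4 CPM in the 6 UBQLN1-/- libraries. The summed level of 8 pluripotency markers was 4556 to 4913 CPM in 7 libraries and 5575 CPM in the first NAC library. Only 2 of the 8 had their highest level there, LIN28A (1878 CPM) and DPPA4 (1135 CPM). SOX2 (224 CPM) and L1TD1 (317 CPM) had their lowest level there. POU5F1, NANOG, TDGF1 and PODXL in the first NAC library lay within the range of the other 7. That library stood apart from the rest. Fits without it are therefore also given for the collagen genes whose call with NAC it changed, and for genes of the lists. DCN, LUM, PRRX1, FAP and MMP1, which fibroblasts express, were above 0 counts in it and at 0 in the other 7 libraries, with DCN at 47.2 CPM. Of 18 fibroblast and mural cell markers, 14 had their highest level there, none was at 0 there against 4 to 6 in the other libraries, and their sum was 703 CPM against 443 to 515 CPM. Summed levels of the other marker lists, by library, were 70.5 to 139 CPM for endothelial cells, 22.6 to 43.2 CPM for chondrocytes, 1.41 to 4.05 CPM for endoderm, 3.55 to 9.63 CPM for mesoderm and 10.6 to 13.3 CPM for trophoblast or amnion. The neural ectoderm sum moved with the groups, at 857 and 856 CPM in WT, 1128 and 1135 CPM in untreated UBQLN1-/-, 887 and 988 CPM at low O2 and 659.7 and 707 CPM with NAC, and its part in the collagen results was not tested.

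Collagen transcripts took 0.183% to 0.254% of all counts. Between 37 and 43 of the 44 genes had at least 1 count in a library, and 31 to 33 reached 1 CPM. Per kilobase of the canonical transcript, the highest mean levels over the 8 libraries were those of COL18A1 (88.0 CPM per kilobase), COL6A1 (78.4), COL9A3 (54.2), COL26A1 (47.8) and COL4A2 (37.2), followed by COL6A2 (34.8), COL1A2 (30.2) and COL4A1 (26.0). COL18A1, the basement membrane multiplexin whose end fragment is endostatin, stood highest in 6 of the libraries by this measure. Of its exonic bases 18.5% lie under exons of SLC19A1, and reads were counted with the default parameters of featureCounts, which ignore strand and leave a read that overlaps both genes uncounted, so that its count may lack reads from these bases.

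**Figure D1:**
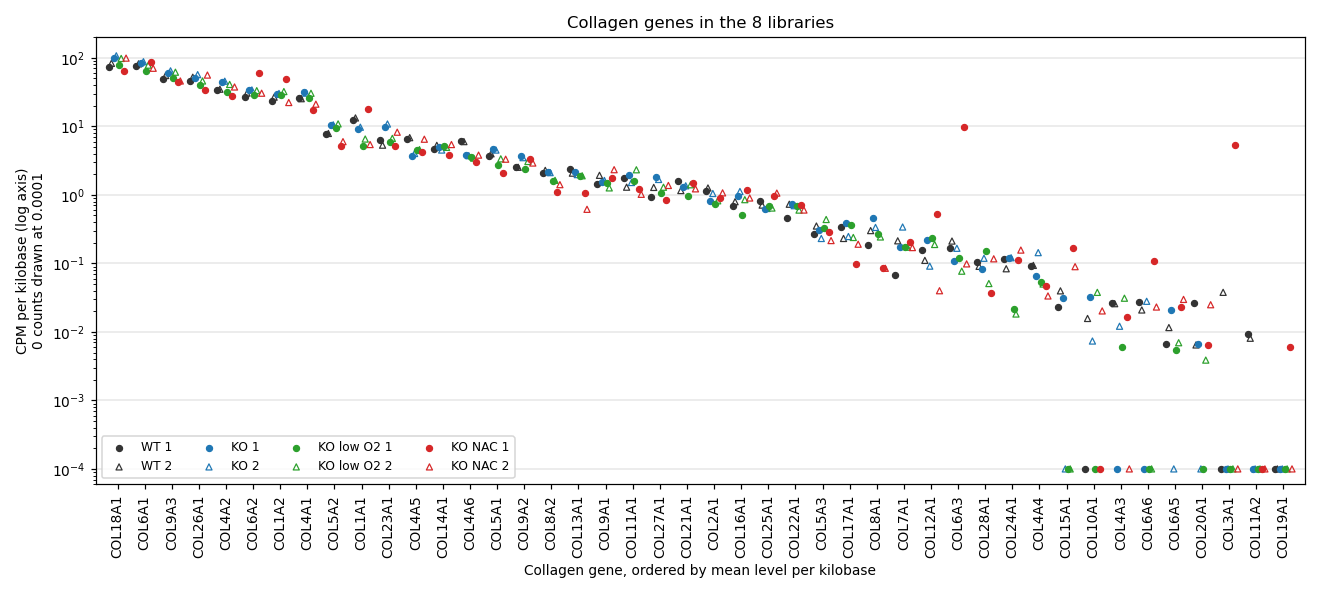
Level of each collagen gene in each library, in CPM per kilobase on a log axis. Genes are ordered by their mean without the first NAC library. Filled circles are the first library of a group and open triangles the second, and 0 counts are drawn at 0.0001. COL3A1, COL6A3 and COL12A1 were highest in the first NAC library (red circles), while COL18A1 and COL6A1 lead in each library.

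COL18A1 was at 400.4 and 449.8 CPM in WT, 537.7 and 579.2 in UBQLN1-/-, 424.5 and 529.8 at low O2, and 349.5 and 535.7 with NAC. COL6A1, a chain of the type VI filaments, was at 319 and 343 CPM in WT, 353 and 369 in UBQLN1-/-, 267 and 329 at low O2, and 360.1 and 296 with NAC. COL26A1, an extracellular collagen with a short helix, was at 136 and 155 CPM in WT, 154 and 169 in UBQLN1-/-, 120.3 and 137 at low O2, and 101 and 167 with NAC. None of these 3 genes was called in any comparison, and in COL18A1 and COL26A1 the NAC libraries lay further apart than those of any other group.

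To determine what loss of UBQLN1 changed, UBQLN1-/- cells were compared with WT at normal O2 (edgeR quasi-likelihood test, adjusted p under 0.05 over all tested genes). Both X-linked type IV chains were lower, and no collagen gene was called higher. COL4A5, whose chain is missing or altered in Alport syndrome, was at 42.9 and 44.7 CPM in WT and 24.4 and 26.2 CPM in UBQLN1-/-. The groups did not overlap, and the log2 fold change was -0.79 (SE 0.16, adjusted p = 0.031 by edgeR), or 1.73-fold lower. COL4A6, a partner of COL4A5 in basement membranes of skin and smooth muscle, was at 41.4 and 40.03 CPM in WT and 25.6 and 25.0 CPM in UBQLN1-/- (log2 fold change -0.69, SE 0.12, adjusted p = 0.016 by edgeR, 1.61-fold lower). These 2 were 5.56% of the collagen genes tested, against 1.96% of all genes called, of which 0.622% were lower and 1.34% higher.

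COL4A1 and COL4A2, the chains found in nearly all basement membranes, lay on the other side of 0 and did not pass. COL4A1 was at 169 and 166 CPM in WT and 204 and 200 CPM in UBQLN1-/- (log2 fold change 0.27, SE 0.11, adjusted p = 0.21 by edgeR). COL4A2 was at 222 and 225 CPM in WT and 285 and 294 CPM in UBQLN1-/- (0.37, SE 0.14, adjusted p = 0.19 by edgeR). In each gene both UBQLN1-/- libraries lay above both WT libraries. Groups did not overlap in 21 of the 36 collagen genes tested, against 54.7% of all tested genes. COL4A3 was not tested, with at most 8 counts in any library, and COL4A4 had 30 and 36 counts in WT and 24 and 59 in UBQLN1-/-, a log2 fold change of 0.19 (SE 0.50).

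The type IV genes lie in head-to-head pairs. In the RefSeq annotation of GRCh38.p14, 126 bases separate the start sites of COL4A1 and COL4A2 on chromosome 13, 418 those of COL4A3 and COL4A4 on chromosome 2, and 379 those of COL4A5 and COL4A6 on the X chromosome. The whole interval of the first pair (chr13:110307158-110307283) and the 250 bases next to the COL4A5 start (chrX:108439588-108439837) are shown, since the chains of each pair lay on the same side of 0 in UBQLN1-/- cells. Both are the plus strand of hg38, and capitals mark CCAAT and GGGCGG on either strand.
COL4A1 and COL4A2: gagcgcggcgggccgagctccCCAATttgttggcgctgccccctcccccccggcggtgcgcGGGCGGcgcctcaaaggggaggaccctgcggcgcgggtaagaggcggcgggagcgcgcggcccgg
COL4A5 and COL4A6: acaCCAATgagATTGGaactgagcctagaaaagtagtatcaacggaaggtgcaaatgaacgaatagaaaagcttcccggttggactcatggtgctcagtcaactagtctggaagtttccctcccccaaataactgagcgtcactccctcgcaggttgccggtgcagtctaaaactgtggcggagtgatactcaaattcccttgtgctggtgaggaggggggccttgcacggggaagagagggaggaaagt
GC content was 80.2% in the first interval, with 1 CCAAT and 1 GGGCGG, and 51.2% in the second, with 2 CCAAT and no GGGCGG. The letters CCAAT were found in 21.1% and GGGCGG in 34.6% of 35116 RefSeq promoters over 126 bases, and in 32.0% and 42.6% over 250 bases. Per kilobase, the ratio of COL4A5 to COL4A6 was 1.06 and 1.14 in WT and 0.976 and 1.08 in UBQLN1-/-, and that of COL4A1 to COL4A2 was 0.751 and 0.727 in WT and 0.707 and 0.669 in UBQLN1-/-.

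Over the 36 collagen genes tested in UBQLN1-/- against WT, the median log2 fold change was 0.18, against -0.002 over all genes, with 23 genes above 0 and 13 below. At an unadjusted p under 0.05, 8 were higher and 2 lower, while 9.50% of all genes were higher and 8.12% lower. The nearest to a call among the former were COL23A1, a transmembrane collagen, at 18.5 and 15.4 CPM in WT and 28.8 and 31.4 CPM in UBQLN1-/- (log2 fold change 0.83, SE 0.19, adjusted p = 0.053 by edgeR), and COL5A2, a chain of the type V fibrils, at 52.8 and 53.8 CPM against 71.4 and 71.9 CPM (0.43, SE 0.11, adjusted p = 0.065 by edgeR). Fitted on the 4 WT and UBQLN1-/- libraries alone, where 7.24% of all genes were called, 6 collagen genes were higher and 3 lower, COL23A1 (adjusted p = 0.0033 by edgeR) and COL5A2 (adjusted p = 0.017) among the former. COL4A5 and COL4A6 stayed lower there and after correction for transcript length and GC content (log2 fold change -0.90 and -0.82, adjusted p = 0.030 and 0.0070 by edgeR). With any 1 of the 4 libraries left out, no collagen gene was called (adjusted p of COL4A5 and COL4A6 0.12 to 0.31), and at most 0.469% of all genes were. The study's rule, used by the authors with DESeq2, was taken as an absolute log2 fold change over 1 at an unadjusted p under 0.05. Applied here to the edgeR fit, it called no collagen gene, against 1.11% of all genes higher and 1.46% lower.

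**Figure D2:**
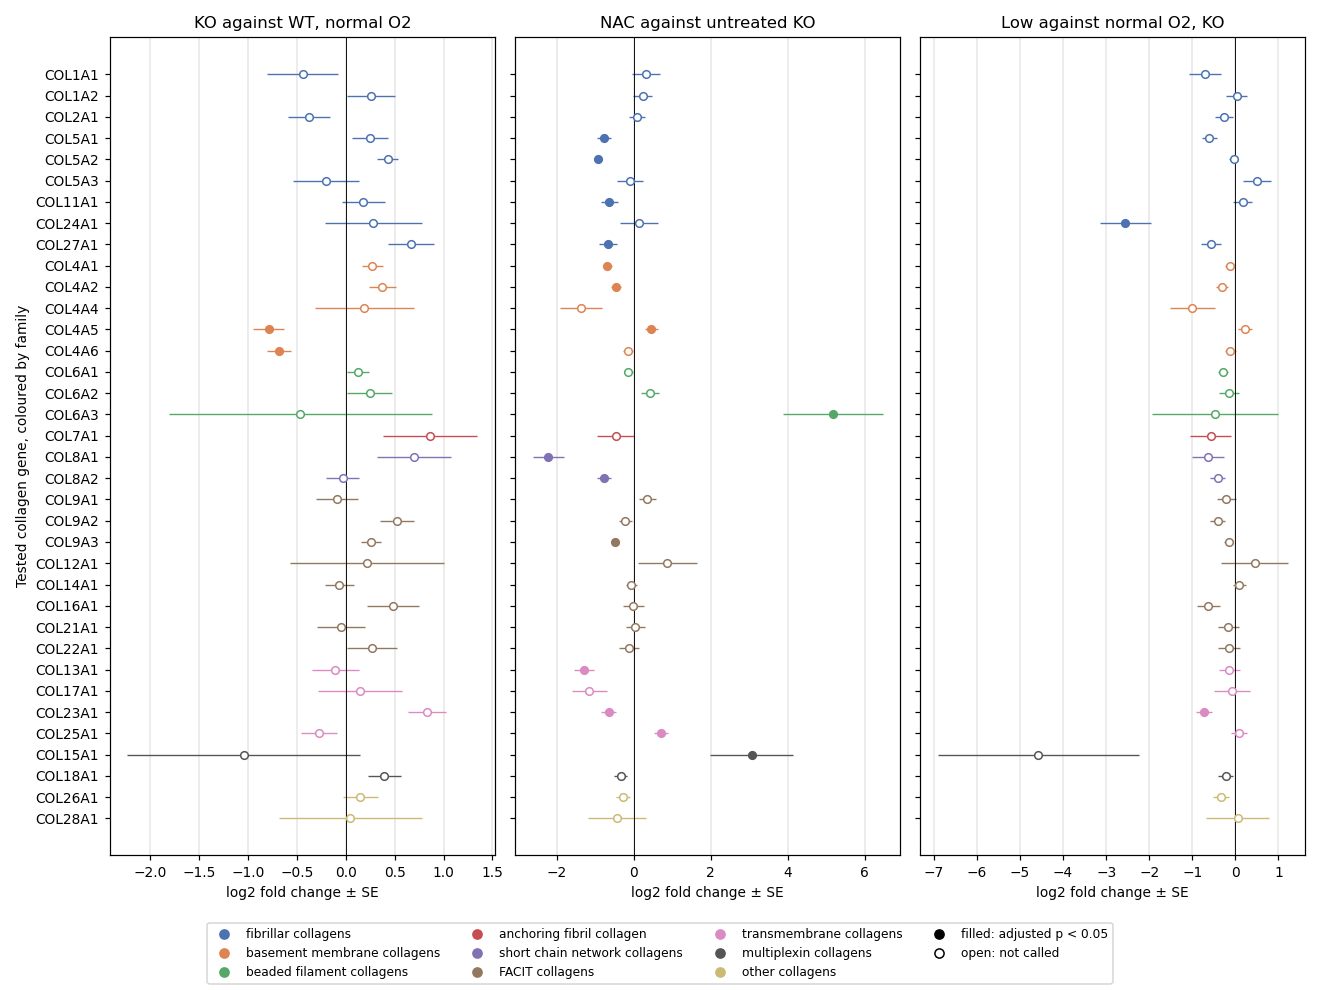
Log2 fold change ± SE of the 36 collagen genes tested in each comparison, coloured by family, with filled points at an adjusted p under 0.05 (edgeR). The 3 panels have different scales. COL4A5 and COL4A6 are filled below 0 on the left, 4 genes above and 11 below 0 are filled in the middle, and COL23A1 and COL24A1 are filled below 0 on the right.

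NAC was given to reduce reactive oxygen in UBQLN1-/- cells, and treated cells were compared with untreated UBQLN1-/- cells at normal O2. The same untreated libraries enter the comparison with WT and that with low O2. In this comparison 44.6% of all tested genes were called, 23.8% higher and 20.8% lower. Of the collagen genes, 4 were higher and 11 lower, or 41.7%, and the median log2 fold change was -0.18 against 0.02 over all genes. Groups did not overlap in 19 of 36, against 70.2% of all genes. By the study's rule COL6A3 and COL15A1 were higher and COL4A4, COL8A1, COL13A1 and COL17A1 lower, against 3.63% of all genes higher and 5.39% lower. The collagen genes called changed with the first NAC library, which is described before the calls.

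COL3A1, the type III chain of loose connective tissue, had 1114 counts (29.1 CPM) in the first NAC library and 0 in the second, at least 290.2-fold more than the limit of a count of 0 there. Elsewhere it had 8 counts in 1 WT library and 0 in the other 5, and it did not pass the filter. COL6A3, the long chain of type VI collagen, was at 1.77 and 2.23 CPM in WT, 1.14 and 1.75 in UBQLN1-/-, 1.25 and 0.810 at low O2, and 103 and 1.03 with NAC. COL1A1 was at 72.4 and 78.5 CPM in WT, 53.6 and 57.5 in UBQLN1-/-, 30.05 and 38.6 at low O2, and 106 and 32.1 with NAC. In all 3 genes the first NAC library was the highest of the 8, and in COL6A3 and COL1A1 the second lay below both untreated libraries.

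COL1A2, the other chain of type I collagen, was at 119 and 135 CPM in WT, 150.0 and 153 in UBQLN1-/-, 147 and 163 at low O2, and 245 and 113 with NAC. COL6A2 was at 93.0 and 105 CPM in WT, 118 and 117 in UBQLN1-/-, 97.5 and 114 at low O2, and 210.5 and 105 with NAC. COL12A1, a FACIT collagen of dense connective tissue, had 235 counts in the first NAC library, 14 in the second and 44 to 111 in the others. Its log2 fold change with NAC was 0.88 over both libraries, -1.95 without the first and 1.76 without the second. COL3A1 and COL12A1 were singled out after their values were seen. Per kilobase, COL6A3 stood at 0.115 of COL6A1 in the first NAC library and at 0.00098 to 0.0026 of it in the other 7, and COL6A1 at 1.40 times COL6A2 against 2.25 to 2.81 times. COL1A1 stood at 0.370 of COL1A2 in that library, within the range of the others, 0.175 to 0.523.

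**Figure D3:**
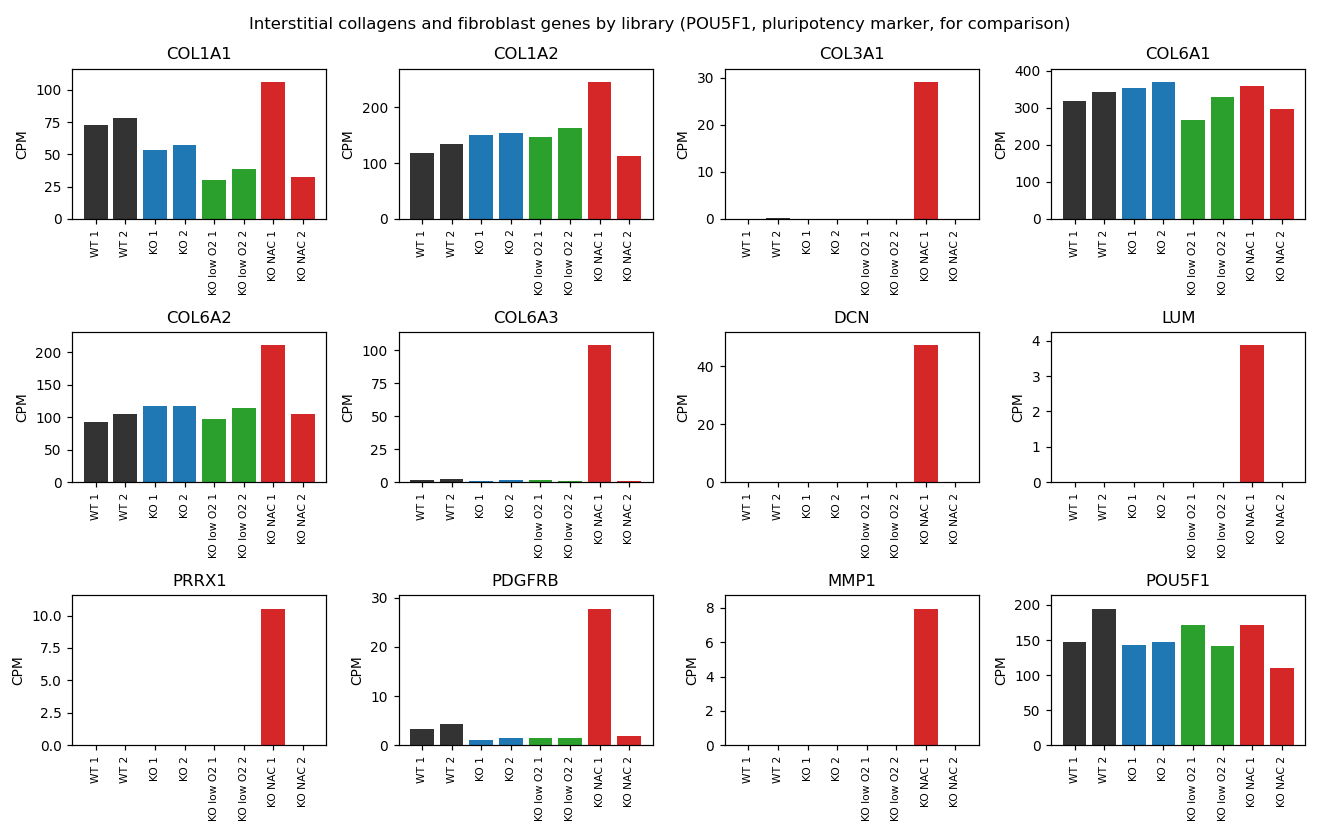
CPM of 6 interstitial collagen chains, 5 genes of fibroblasts and the pluripotency gene POU5F1 in the 8 libraries, each panel on its own axis from 0. COL3A1, COL6A3, DCN, LUM, PRRX1 and MMP1 rise from 0 or near 0 in 7 libraries to their highest level in the first NAC library, whereas COL6A1 and POU5F1 in that library lie within or near the range of the others.

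The difference between both NAC libraries exceeded 1 on the log2 scale in 6 of 36 collagen genes (16.7%), 5 of them higher in the first, against 8.70% of all tested genes. In the other groups 1, 3 and 1 of the 36 differed by as much between their libraries. The median absolute difference was 0.43 in collagen genes and 0.23 in all genes with NAC. In untreated UBQLN1-/- cells it was 0.10 and 0.13. The levels of fibroblast markers given above moved with these collagens in the same library. Fewer or more cells of another type and a change within the same cells cannot be told apart in bulk RNA, and the part of other cells in these results was not tested.

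**Figure D4:**
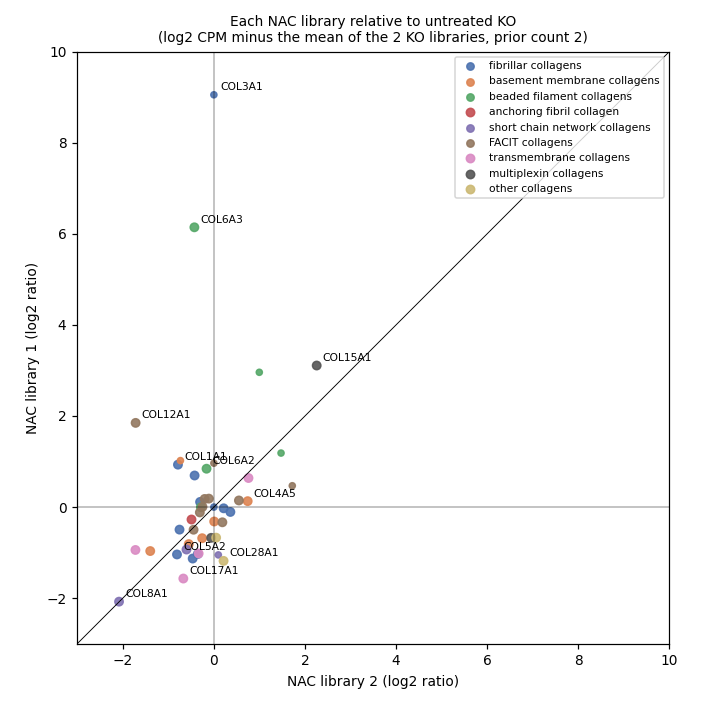
Each NAC library relative to the mean of both untreated UBQLN1-/- libraries, as a difference of log2 CPM with a prior count of 2, for all 44 collagen genes coloured by family. Small points did not pass the filter, and the diagonal marks equal values. COL3A1 (9.05 against 0) and COL6A3 (6.14 against -0.43) lie far above it, while COL8A1 (-2.08 in each) lies on it.

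Both NAC libraries shared a group of lower collagens. COL5A2 was at 34.8 and 40.9 CPM with NAC against 71.4 and 71.9 CPM in untreated UBQLN1-/- and 65.2 and 74.2 CPM at low O2. Its log2 fold change was -0.92 (SE 0.11, adjusted p = 4.78e-05 by edgeR), or 1.90-fold lower. COL8A1, a network collagen of vessel walls and the cornea, had 18 and 14 counts with NAC against 93 and 76, and 34 and 64 in WT (log2 fold change -2.21, SE 0.41, adjusted p = 0.0010 by edgeR). COL13A1, a transmembrane collagen of adhesion sites, was at 3.37 and 1.94 CPM against 6.83 and 6.22 CPM, and 7.52 and 6.53 CPM in WT (-1.29, SE 0.25, adjusted p = 0.0014 by edgeR). These 3 stayed lower without either NAC library, without either untreated library and after the correction for length and GC content (adjusted p at most 0.024 by edgeR).

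As fitted, type IV chains moved in opposite directions, but the contrast depended on the libraries. After the correction for length and GC content, given below, none of them was called lower. COL4A1 was at 115 and 138 CPM with NAC against 204 and 200 CPM (log2 fold change -0.68, SE 0.11, adjusted p = 0.00033 by edgeR), and COL4A2 at 180.2 and 242 CPM against 285 and 294 CPM (-0.46, SE 0.14, adjusted p = 0.019 by edgeR). Without the first NAC library COL4A1 stayed lower (-0.55, adjusted p = 0.00081), whereas COL4A2 was at -0.26 and no longer passed (adjusted p = 0.11), nor did it without either untreated library (0.068 and 0.096). COL4A5 was at 27.7 and 42.4 CPM against 24.4 and 26.2 CPM (0.47, SE 0.16, adjusted p = 0.035 by edgeR), so that the second NAC library lay near the WT level of 42.9 and 44.7 CPM. Its log2 fold change was 0.74 without the first NAC library (adjusted p = 0.00017) and 0.13 without the second (adjusted p = 0.41), and it did not pass without either untreated library (0.17 and 0.098). COL4A6 was at 20.3 and 25.4 CPM against 25.6 and 25.0 CPM and was not called (-0.15, SE 0.12, adjusted p = 0.36 by edgeR). The ratio of COL4A5 to COL4A6 per kilobase was 1.40 and 1.71 with NAC, above the 0.976 to 1.33 of the other 6 libraries.

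Among the other calls, COL5A1, a chain of type V fibrils, was at 17.6 and 27.99 CPM with NAC against 39.3 and 38.1 CPM (log2 fold change -0.77, SE 0.18, adjusted p = 0.0049 by edgeR), with 31.6 and 33.5 CPM in WT. COL9A3, a cartilage FACIT chain, was at 111 and 115 CPM against 152 and 161 CPM (-0.47, SE 0.10, adjusted p = 0.0030 by edgeR), with 124 and 138 CPM in WT and 128 and 154 CPM at low O2. Both NAC libraries lay below both untreated libraries in each. COL8A2, partner of COL8A1, was at 5.22 and 6.58 CPM against 10.2 and 9.86 CPM (-0.77, SE 0.17), and COL11A1, a minor chain of cartilage fibrils, at 8.93 and 7.45 CPM against 14.3 and 11.1 CPM (-0.63, SE 0.22). COL23A1 was at 14.8 and 23.8 CPM against 28.8 and 31.4 CPM (-0.64, SE 0.19), and COL27A1, a fibrillar collagen of cartilage, at 6.68 and 10.7 CPM against 14.3 and 13.1 CPM (-0.66, SE 0.23). Across these 4 the adjusted p lay between 0.0036 and 0.038 (edgeR). Without the first NAC library, COL23A1 (-0.34, adjusted p = 0.088) and COL27A1 (-0.36, adjusted p = 0.20) were no longer called. COL5A1 (-0.47, adjusted p = 0.017), COL9A3 (-0.45, adjusted p = 0.0076), COL8A2 (-0.61, adjusted p = 0.015) and COL11A1 (-0.77, adjusted p = 0.026) stayed lower. COL11A1 did not pass without the second NAC library (-0.51, adjusted p = 0.11) or the first untreated one (-0.44, adjusted p = 0.26), and COL23A1 and COL27A1 did not pass without either untreated library (adjusted p 0.051 to 0.16). The cartilage collagens COL2A1 (log2 fold change 0.085), COL9A1 (0.36) and COL9A2 (-0.21) were not called with NAC. The summed level of 8 chondrocyte markers was 22.6 and 29.9 CPM with NAC against 42.5 and 43.2 CPM untreated. SOX9 alone was at 9.84 and 12.8 CPM against 20.5 and 20.2 CPM. The part of these markers in the lower COL9A3, COL11A1 and COL27A1 was not tested.

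Besides COL4A5, 3 collagen genes were higher. COL25A1, a transmembrane collagen of neurons, was at 7.52 and 8.18 CPM with NAC against 4.74 and 4.88 CPM (log2 fold change 0.70, SE 0.19, adjusted p = 0.0086 by edgeR) and 6.17 and 5.47 CPM in WT, and it stayed higher without either NAC library (adjusted p = 0.0096 and 0.023) but not without either untreated library (0.062 and 0.052). COL15A1, a multiplexin of basement membranes, had 34 and 14 counts with NAC against 6 and 0 untreated, 4 and 8 in WT and 0 in both libraries at low O2 (3.07, SE 1.07, adjusted p = 0.038 by edgeR). Only the NAC libraries held 10 counts or more, so that COL15A1 passed the filter through the group where it was high, which favours a call. It did not pass without the first NAC library (adjusted p = 0.18) or the second untreated one (adjusted p = 0.23). COL6A3 was called at 5.17 (SE 1.29, adjusted p = 0.0063 by edgeR), with groups that overlapped, and its log2 fold change was -0.48 (adjusted p = 0.45) without the first NAC library. Without that library the log2 fold change was -0.79 in COL1A1 and -0.43 in COL1A2. Without the second NAC library it was 0.93 in COL1A1 and 0.69 in COL1A2. Both type I chains thus lay above the untreated level in the first NAC library and below it in the second. Fitted over both NAC libraries, neither chain was called (0.32 and 0.24, adjusted p = 0.52 and 0.46 by edgeR).

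The lower calls with NAC also depended on sequence composition. Over the 15281 tested genes with a transcript model, the log2 fold change with NAC fell with GC content (Spearman's rho -0.49, across genes, which are not independent) and with length (-0.25). The rho with GC content was 0.14 for UBQLN1-/- against WT and -0.33 for low against normal O2. After a smooth trend on both properties was subtracted from each library, a fit chosen after the data were seen, 10 collagen genes were higher with NAC and 3 lower, and the median log2 fold change was 0.33. The 3 were COL5A2, COL8A1 and COL13A1, and 7 of the 11 lower genes were no longer called, COL4A1 (adjusted p = 0.52 by edgeR), COL5A1 (0.72) and COL9A3 (0.66) among them, while COL4A2 turned higher (log2 fold change 0.33, adjusted p = 0.047). COL4A5 (0.89, adjusted p = 0.0037) and COL4A6 (0.43, adjusted p = 0.022) were then higher, as were COL6A1 (0.51, adjusted p = 0.0068), COL6A2 (1.08, adjusted p = 0.013) and COL18A1 (0.52, adjusted p = 0.011). The first NAC library was kept in this fit, which was not repeated without it. COL6A2 (210.5 and 105 CPM with NAC) and COL6A3 (103 and 1.03 CPM), both called higher, lay above both untreated libraries only in the first NAC library. Of all genes, 25.9% were called in this fit. Before it, the 18 collagen genes with a GC content of 58.8% or more had a median log2 fold change of -0.30 with 15 below 0, and the 18 with 56.1% or less one of -0.004 with 9 below 0. Over the 36 genes themselves rho with GC content was -0.17.

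**Figure D5:**
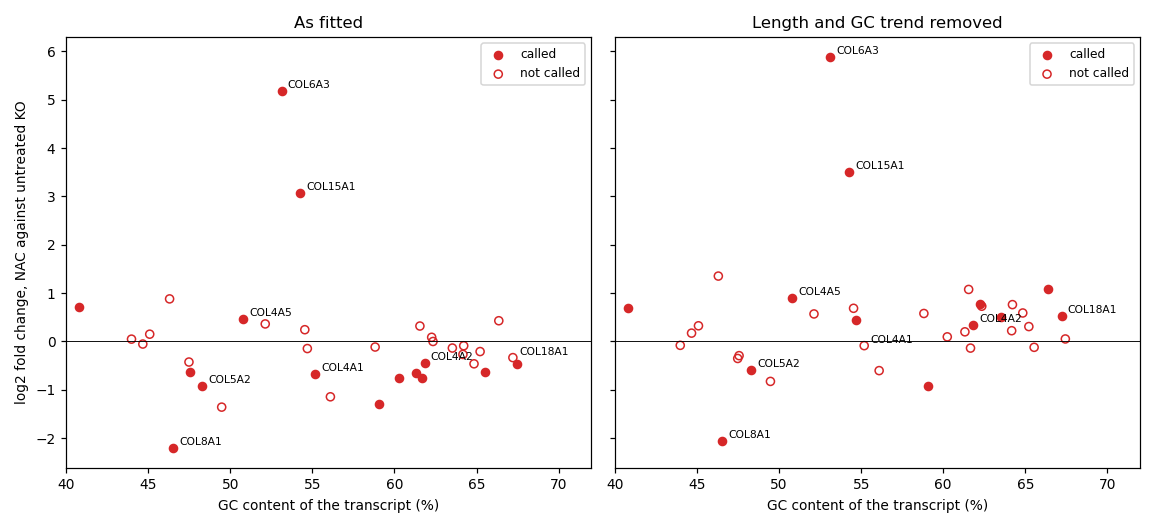
Log2 fold change with NAC against the GC content of the canonical transcript for the 36 collagen genes tested, as fitted and after each library's trend on both properties was subtracted. Filled points passed an adjusted p under 0.05 (edgeR). Genes of high GC content lie mostly below 0 on the left and around or above 0 on the right, while COL8A1 (-2.06) and COL5A2 (-0.59) stay below 0.

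Culture at low O2 was compared with normal O2 in UBQLN1-/- cells. There 7.81% of all genes were called, 3.68% higher and 4.13% lower, and 2 collagen genes (5.56%) were lower and none higher. COL24A1, a fibrillar collagen of developing bone, had 6 and 4 counts at low O2 against 30 and 34 in untreated UBQLN1-/-, 26 and 22 in WT and 29 and 32 with NAC. All 6 other libraries thus had at least 22 counts, and the log2 fold change was -2.55 (SE 0.59, adjusted p = 0.026 by edgeR), or 5.87-fold lower. COL23A1 was at 17.0 and 19.4 CPM at low O2 against 28.8 and 31.4 CPM (-0.73, SE 0.19, adjusted p = 0.043 by edgeR), so that its level at low O2 lay near that of WT cells, 18.5 and 15.4 CPM. DESeq2 gave COL23A1 an adjusted p of 0.0037 and none for COL24A1, whose counts it left out as low.

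Of the 36 collagen genes, 28 lay below 0 at low O2, with a median log2 fold change of -0.22 against -0.0002 over all genes. Groups did not overlap in 24 of 36, against 60.9% of all genes. Without adjustment, 9 had a p under 0.05, each of them lower, while 12.4% of all genes were lower and 12.4% higher. By the study's rule COL24A1 alone was called, against 0.811% of all genes higher and 1.21% lower. COL5A1 was at 22.7 and 28.3 CPM against 39.3 and 38.1 CPM (-0.60, SE 0.18, adjusted p = 0.065 by edgeR), and COL1A1 at 30.05 and 38.6 CPM against 53.6 and 57.5 CPM (-0.70, SE 0.37, adjusted p = 0.27 by edgeR). In COL1A1 the libraries at low O2 lay below both untreated libraries. COL1A2 lay at 147 and 163 CPM against 150.0 and 153 CPM (0.03, SE 0.25), so that the ratio of COL1A1 to COL1A2 per kilobase was 0.175 and 0.203 at low O2 against 0.306 and 0.322. Fitted on the 4 compared libraries alone, where 19.6% of all genes were called, 6 collagen genes were lower, COL1A1 (adjusted p = 0.0023 by edgeR) and COL5A1 (adjusted p = 0.0040) among them. After the correction for length and GC content none was called, the median was 0.017, and COL23A1 (log2 fold change -0.52, adjusted p = 0.16 by edgeR) and COL24A1 (-2.46, adjusted p = 0.063) did not pass, the latter with nearly the fold it had before. With any 1 of the 4 libraries left out none was called either.

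The remaining members were called in no comparison or were barely detected. COL2A1, COL9A1, COL9A2, COL21A1, COL22A1, COL16A1 and COL14A1, which include the main cartilage collagen and most FACIT chains, lay between 2.72 and 43.5 CPM in every library. COL5A3, COL7A1, COL17A1, COL4A4 and COL28A1 lay between 0.157 and 3.13 CPM, and their standard errors of 0.33 to 0.75 on the log2 scale leave changes of that size not detectable at this depth. With NAC the log2 fold change of COL4A4 was -1.36 (adjusted p = 0.059 by edgeR) and that of COL17A1, a hemidesmosome collagen, -1.15 (adjusted p = 0.057). COL4A3, COL6A5, COL6A6, COL10A1, COL11A2, COL19A1 and COL20A1 had at most 36 counts in any library and did not pass the filter. COL11A2 had 2 counts in each WT library and 0 in the 6 others, and 71.8% of its transcript occurs also on alternate scaffolds of the genome build, where reads could be lost as multi-mapped.

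Genes that act on collagen were described from 6 lists. In the modification and folding list of 23 genes, 5 of 22 tested (22.7%) were higher at low O2 and none lower, against 3.68% and 4.13% of all genes. P4HA1, a catalytic subunit of prolyl 4-hydroxylase, was at 112 and 109.6 CPM at low O2 against 36.5 and 38.3 CPM (log2 fold change 1.57, SE 0.17, adjusted p = 0.00068 by edgeR). P4HA2, the sister subunit, was at 23.8 and 23.6 CPM against 8.21 and 7.63 CPM (1.58, SE 0.18, adjusted p = 0.0011 by edgeR), and PLOD2, a lysyl hydroxylase of the chain ends, at 94.9 and 86.2 CPM against 35.4 and 36.0 CPM (1.34, SE 0.13, adjusted p = 0.00037 by edgeR). In all 3 genes both libraries at low O2 lay above all 4 WT and untreated UBQLN1-/- libraries.

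With NAC, 9 genes of the modification list were higher and 1 lower, or 45.5% of those tested, about the share of all genes called (44.6%). Without the first NAC library these counts were also 9 and 1. P4HA1 was at 116 and 73.3 CPM (log2 fold change 1.34, SE 0.17, adjusted p = 7.4e-05 by edgeR) and TMEM38B, an ion channel of the endoplasmic reticulum needed for collagen folding, at 42.3 and 49.1 CPM against 22.1 and 23.4 CPM (1.01, SE 0.14, adjusted p = 0.00012 by edgeR). Without the first NAC library P4HA1 was at 0.97 (adjusted p = 1.53e-05) and TMEM38B at 1.11 (adjusted p = 4.68e-05). In UBQLN1-/- against WT none of the 22 was called. In the list of procollagen processing and cross-linking, 0 of 14 were called in UBQLN1-/- against WT and at low O2, and with NAC 1 was higher and 2 lower (21.4%). LOX, the lysyl oxidase that cross-links fibrils, was at 9.06 CPM in the first NAC library and 1.90 in the second against 1.73 and 1.70 CPM, and ADAMTS2, which trims procollagen, at 6.66 and 5.48 CPM against 10.9 and 14.0 CPM (log2 fold change -1.04, SE 0.18, adjusted p = 0.00059 by edgeR). Without the first NAC library LOX was not called (0.15, adjusted p = 0.76), and ADAMTS2 stayed lower (-1.19, adjusted p = 0.00030).

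Of 9 collagen receptors tested, 2 were higher and 1 lower with NAC (33.3%). ITGB1, a receptor named after its values were seen, was at 728 and 531 CPM with NAC against 370 and 351 CPM untreated. Its log2 fold change was 0.55 without the first NAC library and 1.01 without the second. MRC2, an uptake receptor, was the only 1 called at low O2 (log2 fold change -0.58, adjusted p = 0.019 by edgeR), or 11.1% against 4.13% of all genes lower. DDR2, a receptor tyrosine kinase for fibrillar collagen, was at 6.29 CPM in the first NAC library and 0.267 in the second, and ADGRG1, an adhesion receptor that binds COL3A1, at 0.287 and 0.334 CPM against 0.894 and 1.12 CPM (log2 fold change -1.69, SE 0.55, adjusted p = 0.026 by edgeR). Among 16 basement membrane partners, 5 were higher and 4 lower with NAC (56.2%), and none was called in the other comparisons. LAMA4, a laminin of vessels, was at 10.1 and 3.91 CPM against 3.28 and 2.55 CPM, and LAMB3 of epithelia at 0.313 and 0.267 CPM against 0.894 and 0.947 CPM. Of 7 collagenases, cathepsins and inhibitors, 1 was higher and 1 lower with NAC (28.6%). CTSK, a collagen-cleaving cathepsin, was at 70.1 and 15.8 CPM against 8.75 and 9.16 CPM, and MMP9 at 0.731 and 0.501 CPM against 1.60 and 1.94 CPM. Among 14 small leucine-rich and fibril partners, 2 (14.3%) were higher in UBQLN1-/- against WT and none lower, against 1.34% and 0.622% of all genes. They were TNC (log2 fold change 0.75, adjusted p = 0.037 by edgeR) and THBS2 (0.54, adjusted p = 0.031), which were named after their values were seen. With NAC 2 of this list were higher and 1 lower (21.4%). Each of these shares with NAC stands against 44.6% of all genes. FBN1, the main protein of microfibrils, was at 26.2 and 5.24 CPM with NAC against 4.47 and 3.64 CPM, and FMOD at 1.96 and 0 CPM against 0.108 and 0.0486 CPM. In LOX, DDR2, LAMA4, CTSK, FBN1 and FMOD the first NAC library was the highest of the 8, as in COL3A1 and COL6A3. Without that library CTSK stayed higher (log2 fold change 0.82, adjusted p = 0.0014 by edgeR), whereas DDR2 (-0.07, adjusted p = 0.97), LAMA4 (0.42, adjusted p = 0.28), FBN1 (0.37, adjusted p = 0.30) and FMOD (adjusted p = 0.21) were not called. ADAMTS2, ADGRG1, LAMB3 and MMP9 lay lower in both NAC libraries than in both untreated libraries. Without the first NAC library MMP9 stayed lower (-1.82, adjusted p = 0.0048), and ADGRG1 (adjusted p = 0.086) and LAMB3 (adjusted p = 0.055) did not pass.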

How the data were processed

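Bulk RNA-seq libraries were made by the authors with a TruSeq kit from total RNA. Per the labels, the processing used FastQC 0.11.9, HISAT2 and featureCounts with hg38. featureCounts was run by the authors with default parameters, which ignore strand, and the gene annotation is not given in the sources used here. The authors deposited unnormalised read counts by gene symbol for 8 of 12 labelled samples, and 0 columns were left unused. Of counts from 1 to 10, 68.5% to 72.0% were even, as when both mates of a read pair are counted. Whether this was so was not tested, so that counts and the limit of 3 counts are in reads as deposited and may not equal fragments.

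Counts were tested with edgeR 4.0.16 (R 4.3.3) by the quasi-likelihood F test, with TMM scaling, filterByExpr at a minimum count of 10, and 4 groups in 1 fit with 4 residual degrees of freedom. The biological coefficient of variation was 13.7%. P-values were adjusted by the Benjamini-Hochberg method over 15916 genes. Fold changes are on the log2 scale, and values after ± are SE. CPM per kilobase uses the GENCODE v44 canonical transcript. Alternatives were RLE and upper quartile scaling, other filters, DESeq2 1.42.0, a replicate block, fits on the libraries compared, the study's rule of an absolute log2 fold change over 1 with an unadjusted p under 0.05, leaving out each library, and removal of a trend on length and GC content (mgcv 1.9.3). The scripts were tested on simulated data. The study's rule, used by the authors with DESeq2, was applied here to the edgeR fit. The members and lists were chosen with earlier results of these data known. Library values are given for members called in a comparison or among the 10 of highest mean CPM, and for list genes called with an absolute log2 fold change over 1, at most 3 per list and comparison, besides pluripotency and fibroblast markers and UBQLN1. Over all tested genes, the difference between first and second library was hardly correlated between groups (r = 0.032, -0.0098 and -0.0014 in the 3 comparisons), and no block was used. Whether same-numbered libraries share a clone or culture cannot be told from this.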

Additional observations from a re-analysis of the deposited data

How the results depend on the processing

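RLE and upper quartile scaling left the number of collagen genes called as it was in each comparison. With NAC, RLE gave 18 pathway genes higher and 12 lower against 20 and 10, and upper quartile scaling gave 6 higher at low O2 against 5. Without a filter on low counts, 5 of 44 collagen genes were higher and 4 lower in UBQLN1-/- against WT, 8 were higher with NAC and 8 lower at low O2, and the pathway lists gave 9 higher and 3 lower in UBQLN1-/- against WT and 7 lower at low O2. Of all genes, 3.7% were then higher and 2.22% lower in UBQLN1-/- against WT, 18.7% higher with NAC and 5.59% lower at low O2. With NAC 15 collagen genes were then lower, against 16.7% of all genes. With at least 10 counts in every library, 1 collagen gene was higher in UBQLN1-/- against WT, 1 was lower at low O2, and 1 pathway gene was lower in UBQLN1-/- against WT. The shares of all genes were then 1.66% higher and 0.753% lower in UBQLN1-/- against WT and 5.39% lower at low O2. With NAC this filter gave 3 collagen genes higher and 13 lower, against 26.8% and 24.3% of all genes. In fits on the 4 libraries compared, 6 collagen genes were higher in UBQLN1-/- against WT, 2 were higher with NAC and 6 lower at low O2, and the pathway lists gave 9 higher and 2 lower in UBQLN1-/- against WT and 9 higher and 6 lower at low O2. Of all genes, these fits called 4.76% higher and 2.49% lower in UBQLN1-/- against WT, 20.7% higher with NAC, and 9.53% higher and 10% lower at low O2. They also called 3 collagen genes lower in UBQLN1-/- against WT and 10 lower with NAC, where 19.2% of all genes were lower. DESeq2 called 2 collagen genes higher and 3 lower in UBQLN1-/- against WT. It called 6 pathway genes higher and 3 lower there, and 4 pathway genes lower at low O2. Its shares of all genes were 2.51% higher and 1.43% lower in UBQLN1-/- against WT and 4.9% lower at low O2. By the study's rule the collagen genes were 0 lower in UBQLN1-/- against WT, 2 higher and 4 lower with NAC and 1 lower at low O2, and the pathway lists 0 higher, then 8 higher and 4 lower with NAC. The shares of all genes by this rule are given above.

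A fit without the length and GC trend was added once values were known, and the cause of its effect was not tested. Both NAC libraries were kept in this fit. In it, the collagen median was 0.062 in UBQLN1-/- against WT, 0.33 with NAC and 0.017 at low O2, with 10 higher and 3 lower with NAC and 0 lower at low O2. Of all genes, 14% were higher and 11.9% lower with NAC and 0.408% lower at low O2. The pathway lists then gave 0 higher in UBQLN1-/- against WT, 37 higher and 2 lower with NAC, and 3 higher and 0 lower at low O2. Among the genes called lower with NAC before the correction, COL4A2 (0.33), COL5A1 (0.094), COL9A3 (0.050) and COL27A1 (0.20) changed sign. Genes not called before also changed sign, COL4A6 (-0.15 before, 0.43 after), COL6A1 (-0.14, 0.51) and COL18A1 (-0.34, 0.52) among them. With the replicate block added to this fit, the counts were equal, the medians were 0.045, 0.32 and 0.017, and COL4A2 (0.32), COL5A1 (0.076), COL9A3 (0.050) and COL27A1 (0.17) again changed sign.

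The replicate block alone called 1 collagen gene higher in UBQLN1-/- against WT, COL5A2, besides COL18A1 lower with NAC and COL5A1 lower at low O2, and 3 pathway genes lower at low O2, and no call of a collagen gene was lost with it. With this block 1.61% of all genes were higher in UBQLN1-/- against WT, 21.2% lower with NAC and 4.66% lower at low O2. The labels do not say whether the replicate numbers pair the libraries.

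With 1 library left out, the median log2 fold change of collagen genes was 0.10 to 0.21 in UBQLN1-/- against WT. It was -0.32 to -0.15 with NAC and -0.32 to -0.16 at low O2. The pathway lists gave 0 to 0 in each direction in UBQLN1-/- against WT, 12 to 29 higher and 4 to 15 lower with NAC, and 3 to 4 higher and 0 to 1 lower at low O2. COL6A3 stood at -0.48 with NAC without the first NAC library and at 6.15 without the second. Each lone library is then assumed to vary like the other groups. Groups of 2 limit every call, and collagen genes under 1 CPM rest on few counts.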
